A study of Mus musculus with 8 samples.

Results

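The genes described are the proteasome subunits and regulators of the mouse, taken as every row of the deposited count table whose symbol starts with Psma, Psmb, Psmc, Psmd, Psme, Psmf or Psmg followed by a digit and whose counts sum to at least 80 over the 8 libraries. Of the 23413 rows, 49 had such a symbol and 49 reached that sum, with between 273 and 97770 counts per gene. All 49 passed the filter on low counts in each comparison. RNA was sequenced from tumor-associated macrophages (TAMs), sorted as CD45+ F4/80+ CD11b+ Gr-1- cells from subcutaneous B16F10 tumors, a melanoma line grown in syngeneic C57BL/6 males engrafted at 8 to 10 weeks of age. Treatment was given on day 6 and day 12 of tumor growth and TAMs were taken on day 18. The control group was 2 mice that received vehicle (DMSO), and thiostrepton went to 4 mice by intraperitoneal (I.P.) injection and to 2 mice by injection under the skin beside the tumor (S.C., 20 mg/kg, called IS in the labels). The I.P. dose of these 4 mice and the route of the 2 DMSO mice are not given in the sources used here. No mouse in these groups is labelled as having received an antibody. By the study's account the TAMs of every mouse were sorted and sequenced on their own, so each library is 1 mouse.

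The proteasome is the barrel-shaped protease that degrades proteins tagged with ubiquitin. Its 20S core is built of outer rings of alpha subunits and inner rings of beta subunits, and 3 of the beta subunits (encoded by Psmb5, Psmb6 and Psmb7) carry the active sites. In cells that sense interferon-gamma these are replaced by Psmb8, Psmb9 and Psmb10, which gives the immunoproteasome, a form known for producing peptides for MHC class I and abundant in cells of the immune system. The 19S particle, made of Psmc ATPases and Psmd subunits, binds, unfolds and threads substrates, and the PA28 activators (Psme1, Psme2, Psme3) and PA200 (Psme4) are alternative caps. Thiostrepton is a thiopeptide antibiotic that has also been described as a proteasome inhibitor. In mammalian cells, inhibition of the proteasome is known to raise transcription of its subunits through the factor NRF1 (Nfe2l1). The comparisons ask whether RNA of these genes differed between TAMs of treated and control mice.

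Promoter sequences of 4 catalytic genes are shown because the interferon-induced genes Psmb8 and Psmb9 were high in the same 4 of the 8 mice. Their constitutive counterparts Psmb5 and Psmb6 did not share this split, nor did Psmb10 and Psme1, which interferon-gamma also induces. Each run holds 150 bases that end at the base before the transcription start in RefSeq (GRCm38.p6), read on the strand of the gene. Capitals mark a match to TTCNNNGAA, the letters of an interferon-gamma activated site (GAS), or to TGACNNNGC, the letters of an antioxidant response element (ARE), the kind of site that NRF1 and NRF2 bind. Psmb8 lies at chr17:34198045-34198194 on the plus strand and holds a GAS-like match whose first base is 97 bases before the start. Psmb9 lies at chr17:34187331-34187480 on the minus strand and holds no match. The runs of Psmb8 and Psmb9 lie inside these genes as GENCODE places them (chr17:34197721-34201454 and chr17:34181987-34187764). They are thus upstream of the RefSeq start and not of the GENCODE start. Psmb5 lies at chr14:54617996-54618145 on the minus strand, with an ARE-like match starting 47 bases before the start. Psmb6 lies at chr11:70525207-70525356 on the plus strand, with an ARE-like match starting 9 bases before the start.
Psmb8: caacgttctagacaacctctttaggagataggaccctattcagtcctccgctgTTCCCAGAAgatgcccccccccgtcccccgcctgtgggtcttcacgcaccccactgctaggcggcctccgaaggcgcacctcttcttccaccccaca
Psmb9: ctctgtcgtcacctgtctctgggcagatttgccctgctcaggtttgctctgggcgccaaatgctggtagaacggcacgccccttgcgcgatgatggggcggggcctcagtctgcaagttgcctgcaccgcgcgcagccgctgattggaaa
Psmb5: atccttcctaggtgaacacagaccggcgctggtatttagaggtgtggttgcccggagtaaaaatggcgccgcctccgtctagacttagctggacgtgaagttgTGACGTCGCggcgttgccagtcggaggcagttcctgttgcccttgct
Psmb6: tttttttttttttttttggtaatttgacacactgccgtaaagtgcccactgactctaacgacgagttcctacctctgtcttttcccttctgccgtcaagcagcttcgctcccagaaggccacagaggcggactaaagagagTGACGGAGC

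Windows of 300 bases (250 before and 50 after the start) were present for 41 of the 49 genes, as 44 windows, and both strands were searched. An ARE-like match was in 6 of the 44 windows (13.6%) and in 12.4% of all 32851 windows. Its genes were Psmb5, Psmb6, Psmc6, Psmd9, Psmd12 and Psme4. A GAS-like match was in 3 windows (6.82%) against 8.30% of all, in Psmb8, Psmd2 and Psmg1. Letters of an interferon-stimulated response element (ISRE, GAAA, any 2 bases, then GAAA) were in 5 windows (11.4%) against 3.44% of all, in Psmb3, Psmd4, Psmd9, Psme1 and Psmg4. A match is a description of letters and not a site of binding.

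The libraries held 14127506 to 17577466 counts, and the 49 genes together took 0.814% to 1.05% of them. Counts are given as CPM scaled by edgeR's TMM factors, and 3 counts, the floor used here, are 0.169 to 0.218 CPM, which covers counting error only. Macrophage markers were high in every library, with Cd68 at 2376 to 3396 CPM and Csf1r at 353 to 1128 CPM. The libraries of both S.C. mice and of I.P. mouse 1 stood apart, with a median correlation of log2 CPM with the other libraries of 0.868, 0.884 and 0.892, against 0.937 to 0.954 for the other 5. Melanoma markers summed to 2986 CPM in S.C. mouse 1 and 1671 CPM in I.P. mouse 4, and to 461 to 977 CPM in the others. Neutrophil markers summed to 256 CPM in S.C. mouse 2 and to 3.85 to 34.4 CPM in the others. The part of these markers in the results below was not tested. In bulk libraries, fewer cells of a type and less RNA per cell cannot be told apart.

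TAMs expressed genes of each ring and cap of the constitutive proteasome together with those of the immunoproteasome. The summed level of the 49 genes was 9807 ± 387 CPM in DMSO mice (SD, n = 2), 9091 ± 936 CPM in I.P. mice (n = 4) and 9802 ± 1492 CPM in S.C. mice (n = 2), and the 3 groups overlapped. Per kilobase of transcript (median length of the gene's coding transcripts in GENCODE vM21), Psmb6, the caspase-like subunit, had the highest level, with a mean of 967 CPM per kb over the 8 mice. Psmd8, a subunit of the 19S lid, followed at 411, Psmb2 at 400 and Psmb5, the chymotrypsin-like subunit, at 337 CPM per kb. Psmd8, Psmb2 and Psmb5 overlapped one another over the 8 mice. Among the immunoproteasome genes, Psmb8 stood at 257, Psmb10 at 80.4 and Psmb9 at 57.9 CPM per kb, and Psmb7, the trypsin-like subunit of the constitutive core, stood at 70.6 CPM per kb. The 6 ATPases of the 19S base lay between 48.8 and 161 CPM per kb, and the chaperones that assemble the core and the base (Psmg1 to Psmg4, Psmd5, Psmd9, Psmd10) between 18.2 and 42.1 CPM per kb. At the bottom were Psme4 (2.50), the testis-specific alpha subunit Psma8 (1.76) and the thymus-specific Psmb11 (0.509 CPM per kb). Psmc3ip, at 7.42 CPM per kb, matches the naming rule but encodes a recombination factor and no proteasome subunit.

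**Figure D1:**
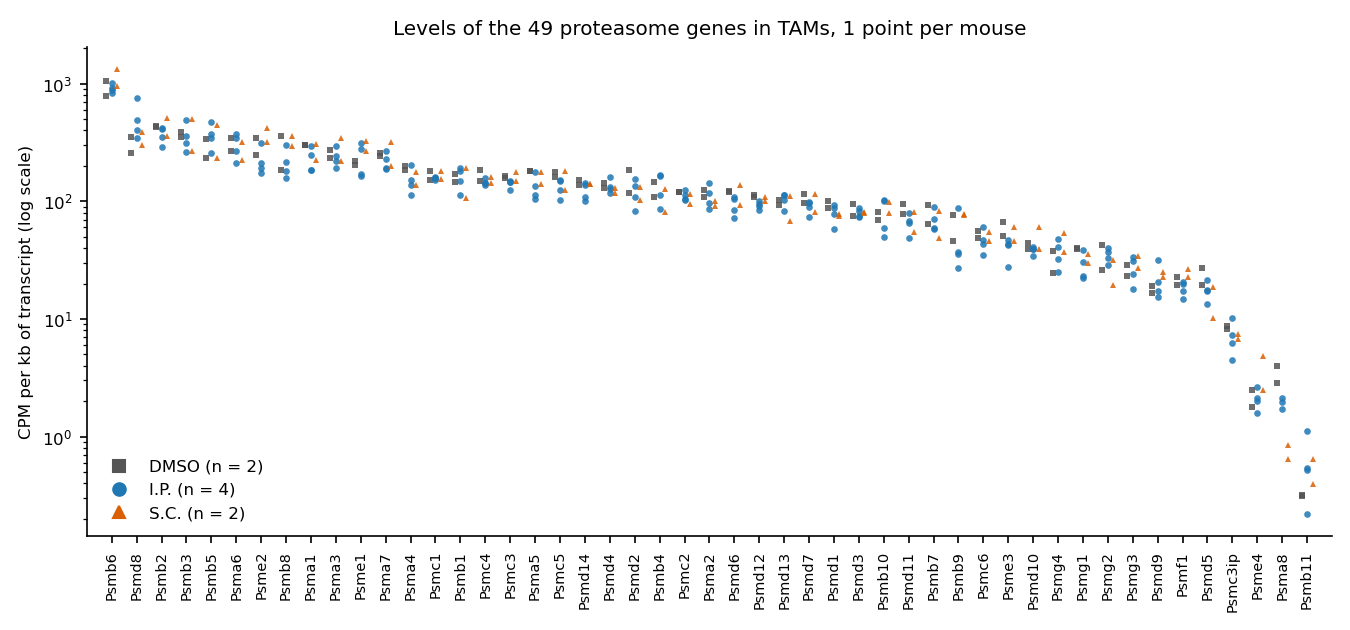
Level of each of the 49 genes in CPM per kb of transcript (log scale), 1 point per mouse, ordered by the mean over 8 mice, with DMSO mice as squares (n = 2), I.P. mice as circles (n = 4) and S.C. mice as triangles (n = 2). Psmb6 stands at the top with a mean of 967 CPM per kb, and Psmb11 at the bottom with 0.509. The I.P. mouse with 0 counts of Psma8 is not drawn.

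The constitutive catalytic genes overlapped between all groups. Psmb5 (chr14:54614119-54618022, minus strand) was at 178 and 259 CPM in DMSO mice, 357, 261, 286 and 197 CPM in I.P. mice and 336 and 178 CPM in S.C. mice. Psmb6 (chr11:70525367-70527858, plus strand) was at 832 and 623 CPM, then 813, 730, 702 and 661 CPM, then 1057 and 759 CPM, in the same order of groups. The highest Psmb6 value was in S.C. mouse 1 and the lowest in DMSO mouse 2. Psmb7 (chr2:38588036-38644087, minus strand) was at 73.8 and 109 CPM, then 68.5, 81.4, 103 and 67.0 CPM, then 96.0 and 56.3 CPM. For each of the 3 genes the S.C. mice differed from each other by more than their mean differed from that of DMSO mice. In edgeR's quasi-likelihood test the log2 fold changes of I.P. against DMSO mice were 0.33 for Psmb5 (95% interval -0.33 to 0.98), -0.01 for Psmb6 (-0.52 to 0.50) and -0.19 for Psmb7 (-0.82 to 0.43). Those of S.C. against DMSO mice were 0.20 for Psmb5 (-0.84 to 1.25), 0.29 for Psmb6 (-0.54 to 1.12) and -0.29 for Psmb7 (-1.29 to 0.72).

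The immunoproteasome genes overlapped between the groups, and Psmb8 and Psmb9 differed widely between mice given the same treatment. Psmb8 (LMP7, chr17:34197721-34201454, plus strand) was at 583 and 302 CPM in DMSO mice, 353, 295, 488 and 254 CPM in I.P. mice and 584 and 483 CPM in S.C. mice. Psmb9 (LMP2, chr17:34181987-34187764, minus strand) was at 104 and 61.6 CPM, then 50.3, 48.6, 118 and 36.5 CPM, then 103 and 105 CPM. Both genes were high in DMSO mouse 1, I.P. mouse 3 and both S.C. mice, and low in DMSO mouse 2 and I.P. mice 1, 2 and 4. Psmb10 (MECL-1, chr8:105935735-105938444, minus strand) was at 107 and 90.6 CPM, then 136, 78.0, 133 and 64.8 CPM, then 129 and 105 CPM. Here I.P. mouse 1 had the highest value and I.P. mouse 4 the lowest. The log2 fold changes of I.P. against DMSO mice were -0.35 for Psmb8 (95% interval -1.13 to 0.43), -0.38 for Psmb9 (-1.44 to 0.67) and 0.05 for Psmb10 (-0.72 to 0.81). Against DMSO mice, S.C. mice had 0.24 for Psmb8 (-0.75 to 1.24), 0.30 for Psmb9 (-0.61 to 1.21) and 0.22 for Psmb10 (-0.55 to 0.99). Psmb9 overlaps Tap1 and Psmb8 overlaps Gm20496 on the other strand, and the counting is not stated to have used strand.

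**Figure D2:**
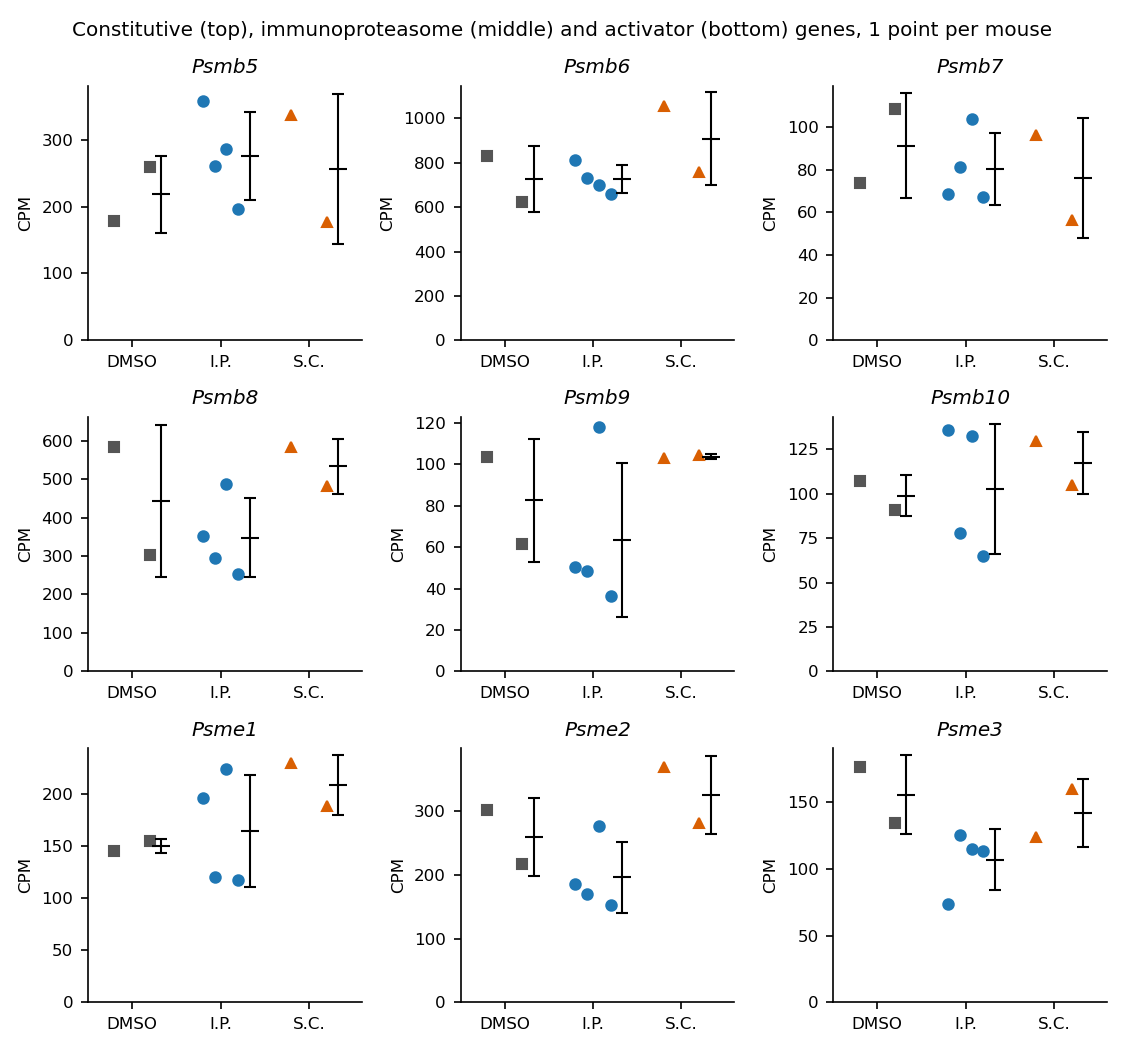
CPM of 9 genes in each mouse (squares DMSO, n = 2, circles I.P., n = 4, triangles S.C., n = 2), with the mean and SD of each group in black, for the constitutive catalytic genes in the top row, the immunoproteasome genes in the middle and the PA28 genes at the bottom. Psme2 is the gene with both S.C. mice (368 and 281 CPM) above all 4 I.P. mice (152 to 277 CPM), and Psme3 the gene with all 4 I.P. mice (73.7 to 125 CPM) below both DMSO mice (134 and 176 CPM).

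The exchange of catalytic subunits was followed as the log2 ratio of an immunoproteasome gene to its constitutive counterpart within each library, which needs no scaling between libraries. Psmb8 over Psmb5 was 1.71 and 0.22 in DMSO mice, -0.02, 0.18, 0.77 and 0.37 in I.P. mice and 0.80 and 1.44 in S.C. mice. The S.C. mice lay above the I.P. mice with no overlap, and the DMSO mice spanned both. The mean of S.C. mice exceeded that of I.P. mice by 0.79 (two-sided exact permutation test, p = 0.133, the smallest p that 4 against 2 mice can give). Psmb9 over Psmb6 was -3.0 and -3.34 in DMSO mice, -4.01, -3.91, -2.57 and -4.18 in I.P. mice and -3.36 and -2.86 in S.C. mice. The value of I.P. mouse 3 was the highest of all 8, and those of the other 3 I.P. mice were the lowest. Psmb10 over Psmb7 ran from -0.26 to 0.98, and its groups overlapped. Over the 9 tests of the 3 ratios the exact p-values adjusted by Benjamini-Hochberg were 0.857 to 1, and with 2 mice in a group no such test can fall under 0.05.

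The PA28 genes encode the heptameric caps that open the core without ATP, PA28-alpha and PA28-beta (Psme1, Psme2) being induced by interferon-gamma and PA28-gamma (Psme3) being nuclear. Psme2 (chr14:55587441-55591113, minus strand) was at 302 and 216 CPM in DMSO mice, 186, 170, 277 and 152 CPM in I.P. mice and 368 and 281 CPM in S.C. mice. It was higher in both S.C. mice than in any I.P. mouse, with S.C. mouse 2 just above I.P. mouse 3. Psme1 (chr14:55578123-55581529, plus strand) was at 146 and 155 CPM, then 196, 121, 225 and 117 CPM, then 230 and 189 CPM. Both S.C. mice lay above both DMSO mice, and I.P. mice lay on both sides. Psme3 (chr11:101316213-101323537, plus strand) was at 176 and 134 CPM, then 73.7, 125, 115 and 113 CPM, then 123 and 160 CPM. All 4 I.P. mice were below both DMSO mice, and I.P. mouse 1 was lowest. A retrogene of Psme2, Psme2b, is annotated in GENCODE and is no row of the count table, so reads shared by these copies make the level of Psme2 uncertain.

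Psmb8, Psmb9 and Psme2 split the mice into the same sets of 4, though not in the same order within them. The 4 mice with 483 CPM or more of Psmb8 (DMSO mouse 1, I.P. mouse 3 and both S.C. mice) also had 103 to 118 CPM of Psmb9 and 277 to 368 CPM of Psme2. The other 4 mice had 254 to 353 CPM of Psmb8, 36.5 to 61.6 CPM of Psmb9 and 152 to 216 CPM of Psme2. Psmb5 did not follow, with 178, 286, 336 and 178 CPM in the former mice and 259, 357, 261 and 197 CPM in the latter. Psmb6 also overlapped between the sets, with 702 to 1057 CPM in the former and 623 to 813 CPM in the latter, but its highest values were in S.C. mouse 1 and DMSO mouse 1, as were those of Psmb8. Psmb10 and Psme1, which interferon-gamma also induces, did not follow the split. Psmb10 was at 136 CPM in I.P. mouse 1 against 105 CPM in S.C. mouse 2. Psme1 was at 196 CPM in I.P. mouse 1 against 146 CPM in DMSO mouse 1. Because the mice fell into separate sets, no correlation over the 8 mice is given, and the pattern was picked out after the values were seen. The same 4 mice had the highest sums of T and NK cell markers, at 15.5, 15.7, 38.7 and 25.6 CPM (DMSO 1, I.P. 3, S.C. 1, S.C. 2) against 0.730 to 3.73 CPM in the others. They also had the highest sums of B cell markers, at 19.7, 20.7, 29.8 and 25.5 CPM against 8.81 to 12.2 CPM. Of the 9 T and NK cell genes listed, 9 were in the count table with at least 1 count, but Cd3e was at or below 1.55 CPM and Ncr1 at or below 2.22 CPM in every mouse. Single genes did not all follow the sums. Nkg7 did, at 1.86 to 11.4 CPM in the same 4 mice and 0 to 0.408 CPM in the others. Gzmb was at 10.3 CPM in I.P. mouse 3 but 0.0728 CPM in S.C. mouse 2, where Cd8a was lowest (0.364 CPM). Klrb1c was at 0 CPM in DMSO mouse 1 and S.C. mouse 1 and at 2.10 CPM in I.P. mouse 4. Ifng itself was at 4.61 CPM in DMSO mouse 1, 0.508 CPM in I.P. mouse 3 and 0 counts in the other 6 mice. The part of these cells in the pattern was not tested.

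**Figure D3:**
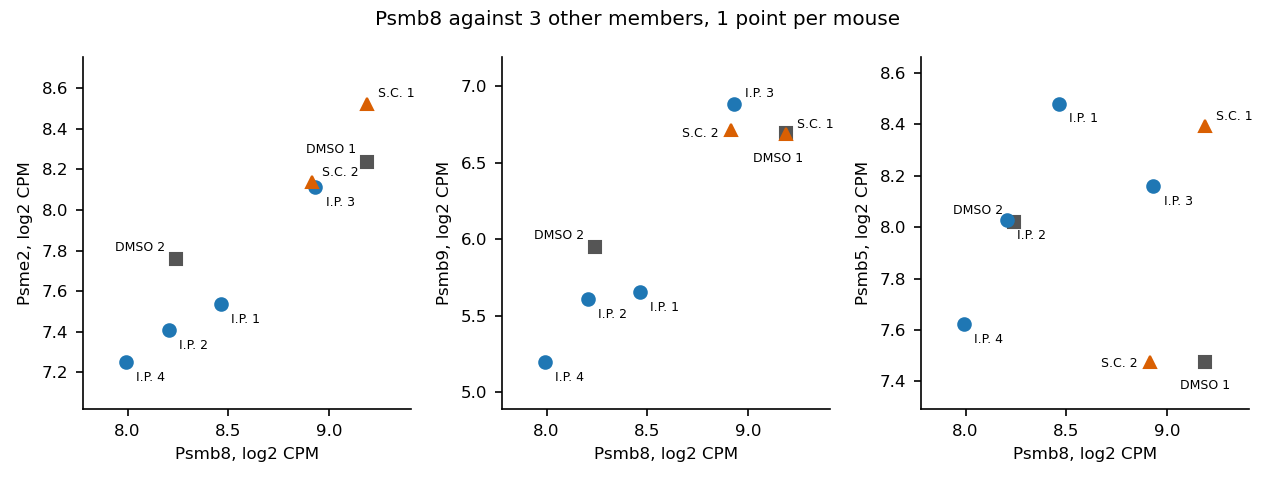
Log2 CPM of Psme2, Psmb9 and Psmb5 (vertical axes) against log2 CPM of Psmb8 (horizontal axes), 1 labelled point per mouse, with DMSO mice as squares (n = 2), I.P. mice as circles (n = 4) and S.C. mice as triangles (n = 2). DMSO mouse 1, I.P. mouse 3 and both S.C. mice sit at the upper right for Psme2 and Psmb9 and are spread over the vertical axis for Psmb5.

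The spread between mice differed between the parts of the particle. For each gene the SD of log2 CPM was taken within a group, and the median over the genes of a class is given. It was 0.12 in DMSO mice, 0.12 in I.P. mice and 0.19 in S.C. mice for the 6 ATPases of the 19S base. It was 0.53, 0.54 and 0.19 for the 3 immunoproteasome genes, and 0.38, 0.29 and 0.54 for the 3 constitutive catalytic genes. Over all 49 genes it was 0.17, 0.32 and 0.26. Psmc1, whose product opens the gate of the core, was the steadiest ATPase, at 285 and 242 CPM in DMSO mice, 252, 255, 240 and 249 CPM in I.P. mice and 285 and 246 CPM in S.C. mice. Relative to the mean over 8 mice, the median of the 49 genes was 0.13 and 0.10 in DMSO mice, -0.13, -0.04, 0.16 and -0.28 in I.P. mice and 0.20 and -0.03 in S.C. mice. I.P. mouse 4 was thus the lowest, and its median was below 0 in each class of 3 genes or more.

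**Figure D4:**
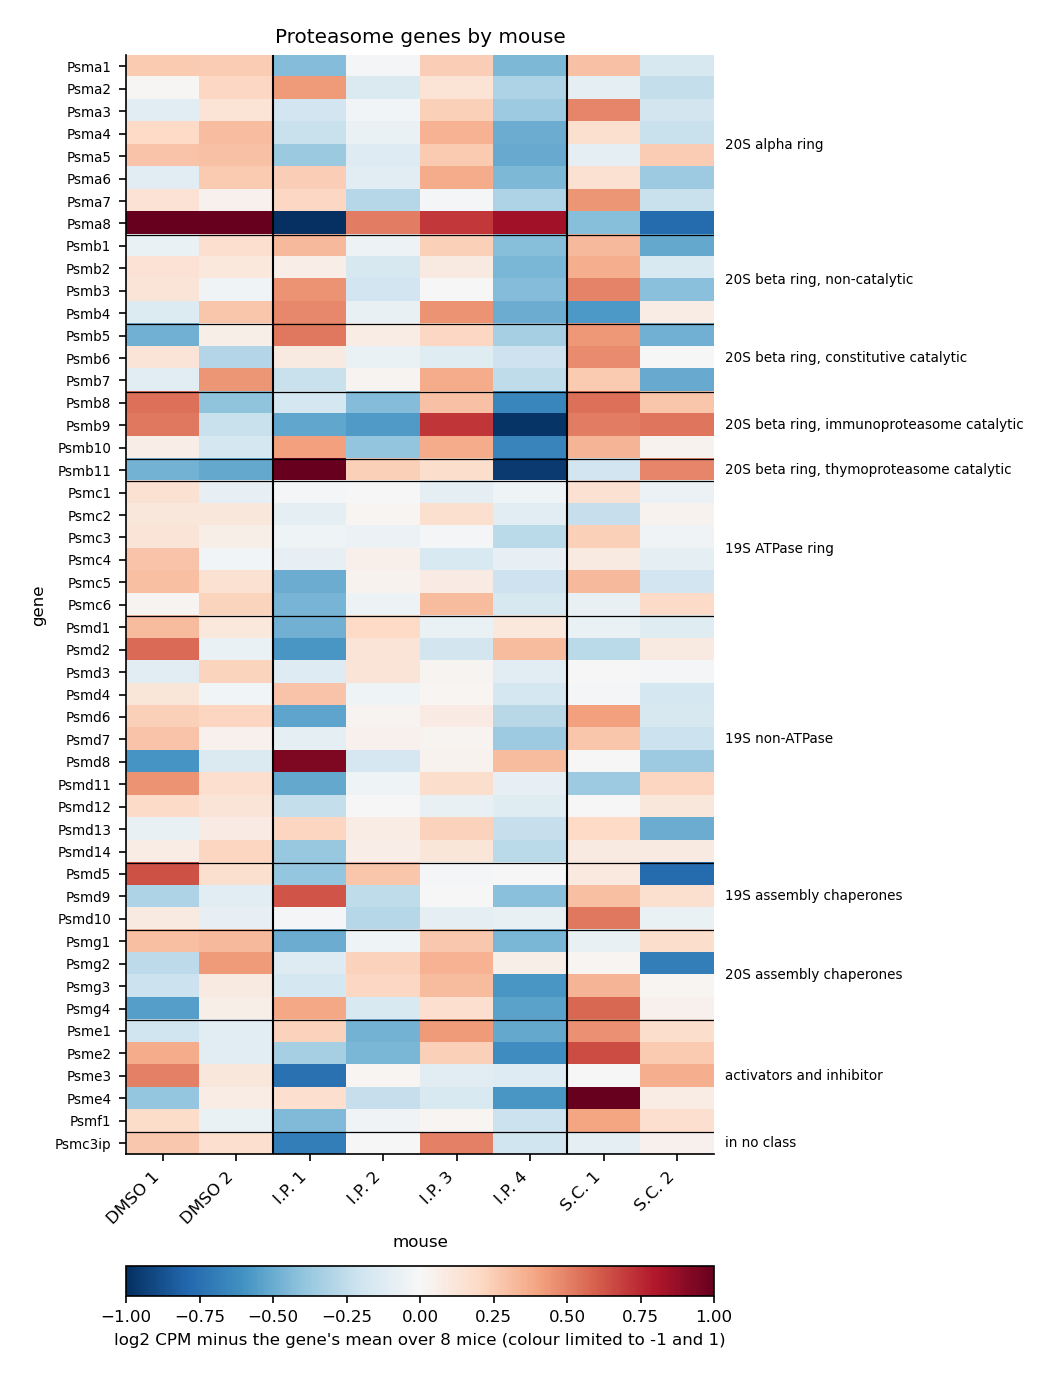
Deviation of log2 CPM from the mean of the gene over 8 mice (colour, red above and blue below, limited to -1 and 1), with genes in rows ordered by class and mice in columns, separated into DMSO (n = 2), I.P. (n = 4) and S.C. (n = 2) by lines. The rows of the 19S ATPases are pale, those of Psmb8 and Psmb9 are strongly coloured, and the column of I.P. mouse 4 is mostly blue, with a median of -0.28.

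In TAMs from I.P. mice, no proteasome gene passed the test, and most lay slightly below their level in DMSO mice. The median log2 fold change of the 49 genes was -0.19, with 38 below 0, where the median of the 12174 genes tested was 0.02 and 48.2% were below 0. The 8 alpha genes and the 6 ATPases were all below 0, with medians of -0.26 and -0.20, as were 9 of the 11 other 19S subunits. Members of the complex vary together between libraries, so these counts are a description. By edgeR's quasi-likelihood test 0 of 49 had an unadjusted P under 0.05 (3.43% of all genes did), 0 had such a P with a 2-fold change, the study's criterion (2% of all genes), and 0 had an adjusted p under 0.05 (0% of all genes). DESeq2 and edgeR's likelihood ratio test each also gave 0 members at an unadjusted P under 0.05, against 4.63% and 4.24% of all genes. The smallest adjusted p of a member was 0.980. The 95% interval excluded a 2-fold change in either direction for 37 of the 49 genes, against 41.6% of all genes.

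The 2 members with the smallest P in I.P. against DMSO mice, Psmd8 and Psme3, lay on opposite sides of 0, and neither passed the test. Psmd8 (chr7:29174188-29180701, minus strand) was at 396 and 538 CPM in DMSO mice and 1142, 531, 610 and 741 CPM in I.P. mice, and I.P. mouse 1 was the highest while I.P. mouse 2 lay between the DMSO mice. Its log2 fold change was 0.68 (SE 0.34, 95% interval -0.09 to 1.46, unadjusted P = 0.0750, adjusted p = 0.980 in edgeR's test), and 0.42 without I.P. mouse 1. For Psme3 it was -0.54 (SE 0.27, interval -1.15 to 0.07, unadjusted P = 0.0753, adjusted p = 0.980). Psma5, an alpha subunit, had a log2 fold change of -0.45 and Psmg1, a chaperone that pairs alpha subunits, one of -0.47, and all 4 I.P. mice lay below both DMSO mice for each. All 4 I.P. mice lay below both DMSO mice for 10 of the 49 genes, against 6.83% of all genes, and above both for 0, against 7.32%. The others were Psma1, Psma8, Psmb2, Psmc3, Psmc5, Psmd6 and Psmd12. Leaving out I.P. mouse 3 brought Psma5, Psmb9 and Psme2 under an unadjusted P of 0.05, all lower than in DMSO mice, and leaving out I.P. mouse 2 brought Psmd8 there, beside 4.36% and 4.11% of all genes.

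**Figure D5:**
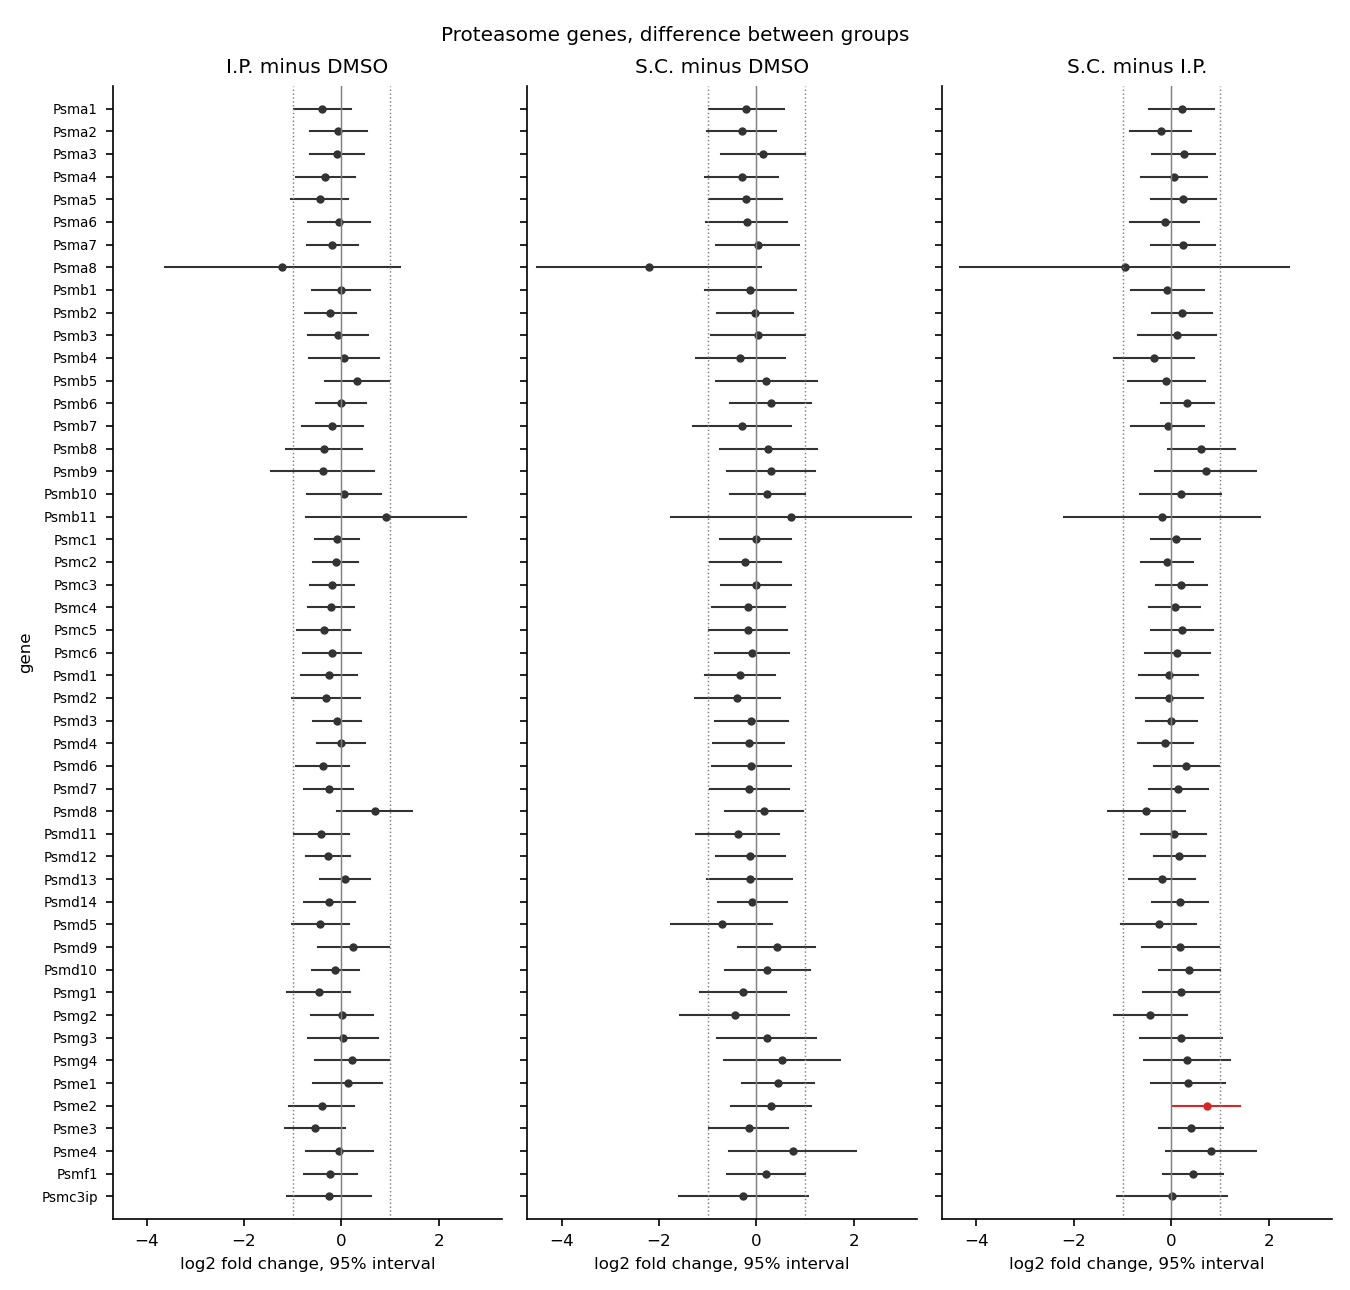
Log2 fold change (point) and 95% interval (line) of each of the 49 genes by edgeR's quasi-likelihood test, for I.P. minus DMSO (4 against 2 mice), S.C. minus DMSO (2 against 2) and S.C. minus I.P. (2 against 4), with dotted lines at a 2-fold change. Psme2 in S.C. minus I.P., drawn in red at 0.73, is the gene whose unadjusted P is under 0.05, and the intervals of Psma8 and Psmb11 are the widest.

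In TAMs from S.C. mice, no proteasome gene passed the test against DMSO mice either, and the intervals were wider. The median log2 fold change was -0.10, with 31 of 49 genes below 0, beside 0.02 and 48.4% for the 11680 genes tested. It became 0.05 without S.C. mouse 2. Of the 19S subunits, 6 of 6 ATPases and 10 of 11 others were below 0, while the 3 immunoproteasome genes and 4 of the 5 genes of the activators and inhibitor were above 0. Of the 49 genes 0 had an unadjusted P under 0.05 in edgeR's quasi-likelihood test (5.41% of all genes), 0 met the study's criterion (5.06%) and 0 had an adjusted p under 0.05 (0%). DESeq2 gave 0 members and edgeR's likelihood ratio test 1, Psma8, at an unadjusted P under 0.05, against 6.23% and 6.60% of all genes. The interval excluded a 2-fold change for 22 genes, against 9.6% of all genes. Both S.C. mice lay below both DMSO mice for 10 genes (17.2% of all genes) and above them for 4 (17.1%).

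Psma8, an alpha subunit of the testis proteasome and rare in these cells, had the smallest P in this comparison. It was at 5.36 and 3.85 CPM in DMSO mice (79 and 67 counts), 0, 2.31, 2.65 and 2.92 CPM in I.P. mice (0, 38, 47 and 50 counts) and 1.14 and 0.874 CPM in S.C. mice (17 and 12 counts). All 6 treated mice lay below both DMSO mice, which both routes share as controls. The log2 fold change of S.C. mice was -2.21 (SE 0.93, 95% interval -4.51 to 0.10, unadjusted P = 0.0575, adjusted p = 0.938 in edgeR's test), and that of I.P. mice, 1 of them at 0 counts, was -1.22 (interval -3.63 to 1.2). The P of the S.C. mice fell to 0.0458 when counts were scaled by library size only and to 0.0487 with the likelihood ratio test. Psmd5, a chaperone of 19S assembly, was at 120 and 86.0 CPM in DMSO mice and 82.7 and 45.1 CPM in S.C. mice. Its log2 fold change was -0.71 (interval -1.74 to 0.31). The 4 genes above both DMSO mice were Psmb11, Psmd9, Psme1 (log2 fold change 0.45, interval -0.28 to 1.19) and Psme4. Psme4, named after its values were seen, was at 11.7 and 16.1 CPM in DMSO mice and 31.5 and 16.2 CPM in S.C. mice, so that its log2 fold change of 0.75 came from S.C. mouse 1. Leaving out 1 S.C. mouse leaves the spread to the 2 DMSO mice, as if the lone mouse varied like them, and brought Psma8, Psmd5 and Psmg2 (without S.C. mouse 1) or Psma8 and Psme4 (without S.C. mouse 2) under an unadjusted P of 0.05. Of all genes, 30.4% and 34.0% were then under it.

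Between the routes, the PA28 subunit Psme2 was higher in TAMs from S.C. mice than from I.P. mice, and Psmb8 and Psmb9 lay on the same side without passing the test. For Psme2 the log2 fold change was 0.73 (SE 0.30, 95% interval 0.04 to 1.41, unadjusted P = 0.0395, adjusted p = 0.552 in edgeR's test), so it did not pass once all 12206 genes were counted. It was 0.62 for Psmb8 (-0.07 to 1.30, unadjusted P = 0.0719) and 0.71 for Psmb9 (-0.32 to 1.75, unadjusted P = 0.153). It was -0.10 for Psmb5 (-0.88 to 0.69), 0.32 for Psmb6 (-0.22 to 0.87) and -0.07 for Psmb7 (-0.82 to 0.67). The unadjusted P of Psme2 was 0.0668 with scaling by library size only, 0.0660 to 0.0991 without I.P. mouse 1, 2 or 4 and 0.213 without S.C. mouse 1. Without I.P. mouse 3 the unadjusted P in edgeR's test was 0.0126, and those of Psmb8 (0.0222) and Psmb9 (0.00608) were then also under 0.05. Of all genes, 6.24% were then under it. By the study's account the S.C. dose was lower than its I.P. doses, so route and dose cannot be told apart here. Which I.P. dose these mice received is not given.

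In that comparison 1 of 49 genes had an unadjusted P under 0.05, against 8.59% of all genes. DESeq2 and the likelihood ratio test also gave 1, against 10.4% and 10.5% of all genes. By edgeR's quasi-likelihood test 0 met the study's criterion (7.05% of all genes) and 0 had an adjusted p under 0.05 (0%). The median log2 fold change was 0.14, with 33 genes above 0, beside 0.02 for all genes, and it was -0.01 without S.C. mouse 1. All 5 genes of the activators and inhibitor were above 0, with a median of 0.45. Both S.C. mice lay above all 4 I.P. mice for 2 genes (8.05% of all genes), Psme2 and Psmf1, and below them for 0 (10.5%). Psmf1, the inhibitor PI31, was at 38.6, 51.2, 53.2 and 45.2 CPM in I.P. mice and 69.0 and 59.1 CPM in S.C. mice, with a log2 fold change of 0.45 (-0.17 to 1.06). The interval excluded a 2-fold change for 31 genes, against 20.9% of all genes. With scaling by library size only, the median of all genes dropped by 0.15 in S.C. against DMSO mice and by 0.11 in S.C. against I.P. mice, and relative to it the medians of the 49 genes were -0.12 and 0.12.

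The genes around the proteasome were read from 4 lists, by counts at an unadjusted P under 0.05 in edgeR's test, beside which stand 3.43% of all genes in I.P. against DMSO mice, 5.41% in S.C. against DMSO mice and 8.59% in S.C. against I.P. mice. Of 8 other components and cofactors tested, such as the ubiquitin receptor Adrm1, the maturation factor Pomp and the deubiquitinase Usp14, 0 passed in any comparison. Adrm1 had a log2 fold change of 0.16 in I.P. mice (95% interval -0.43 to 0.74) and of -0.01 in S.C. mice (-0.80 to 0.78) against DMSO mice. Of 8 genes for transcription and processing of its regulators, Mafk, a small MAF partner of NRF1 and NRF2, rose in I.P. mice and 0 fell. The log2 fold change of Mafk was 0.89 (unadjusted P = 0.0405, adjusted p = 0.980 in edgeR's test). That unadjusted P was 0.0528 with replicate number as a block. The unadjusted P of Mafk was 0.0581 to 0.199 without either DMSO mouse, I.P. mouse 1 or I.P. mouse 4, 0.0527 with library size only and 0.0563 with all 3 groups in 1 fit. Nfe2l1, which encodes NRF1, was at 43.2 and 54.9 CPM in DMSO mice, 72.1, 59.6, 52.5 and 94.0 CPM in I.P. mice and 10.2 and 71.1 CPM in S.C. mice. I.P. mouse 3 lay between the DMSO mice and the S.C. mice lay on both sides of them, and the log2 fold change of I.P. mice was 0.50 (-0.17 to 1.16).

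Nfe2l2, which encodes the related factor NRF2, rose in S.C. mice. It was at 199 and 194 CPM in DMSO mice, 203, 213, 218 and 194 CPM in I.P. mice and 316 and 431 CPM in S.C. mice. Its log2 fold change was 0.90 against DMSO mice (unadjusted P = 0.0300, adjusted p = 0.830) and 0.85 against I.P. mice (unadjusted P = 0.00578, adjusted p = 0.346). With replicate number as a block, its unadjusted P in edgeR's test was 0.0813 against DMSO mice and 0.0360 against I.P. mice. Against DMSO mice its P was 0.102 to 0.159 without either DMSO mouse or without S.C. mouse 2, and 0.0532 with library size only, and against I.P. mice it was 0.0574 without S.C. mouse 2. Ngly1, the enzyme that activates NRF1 by removing its sugars, was higher in S.C. than in I.P. mice (log2 fold change 0.64, unadjusted P = 0.0447), and was named after its values were seen. Under the same block its unadjusted P in edgeR's test was 0.148. Its unadjusted P was 0.0578 to 0.111 without each mouse in turn, 0.100 with library size only, 0.0594 with no filter on low counts and 0.0614 with the likelihood ratio test.

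Of 17 genes for ubiquitin, shuttle factors and partners of p97, 2 rose in I.P. mice (3.43% of all genes passed in either direction) and 0 fell. Sqstm1, the autophagy receptor p62, was at 614 and 647 CPM in DMSO mice and 1805, 1055, 996 and 1456 CPM in I.P. mice, all 4 above both. Its log2 fold change was 1.07 (unadjusted P = 0.00645, adjusted p = 0.980), and its unadjusted P was under 0.05 without each mouse in turn. The second was Zfand2a, a stress-induced proteasome adaptor, at a log2 fold change of 1.0 (unadjusted P = 0.0330), named after its values were seen. With replicate number as a block, its unadjusted P in edgeR's test was 0.0537. Its P was 0.0690 to 0.147 without either DMSO mouse or I.P. mouse 4. In S.C. mice 0 of the 17 passed against either group, and Sqstm1 was at 887 and 1220 CPM (0.72, interval -0.07 to 1.5). Of 14 genes for interferon-gamma signalling and antigen processing, Irf1, a factor that drives Psmb8, Psmb9 and Tap1, rose in S.C. against DMSO mice (1.39, unadjusted P = 0.0401, adjusted p = 0.887). It was at 86.2 and 59.2 CPM in DMSO mice, 126, 35.3, 152 and 43.6 CPM in I.P. mice and 110 and 277 CPM in S.C. mice. It was highest in S.C. mouse 2, but was higher in I.P. mice 1 and 3 than in S.C. mouse 1. Without S.C. mouse 2 its log2 fold change was 0.53 and its unadjusted P in edgeR's test was 0.146, and that P was 0.140 without DMSO mouse 2, 0.0562 with library size only and 0.0786 with all 3 groups in 1 fit. In I.P. mice 0 of the 14 passed. Tap1, the peptide transporter next to Psmb9, was at 120 and 47.9 CPM in DMSO mice, 62.3, 41.0, 110 and 61.4 CPM in I.P. mice and 90.5 and 111 CPM in S.C. mice, and was thus high in the same 4 mice as Psmb8. Tap1 overlaps Psmb9 on the other strand, and the counting is not stated to have used strand. Erap1 and H2-K1 of this list split the mice in the same way, but others did not. Tapbp was at 340 CPM in I.P. mouse 4 against 275 CPM in S.C. mouse 1. B2m was at 2826 CPM in DMSO mouse 2 against 2403 CPM in DMSO mouse 1. Irf1 was higher in I.P. mouse 1 than in DMSO mouse 1.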

How the data were processed

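TAM RNA of 8 libraries was measured by RNA-seq after a KAPA mRNA library kit. The authors deposited whole-number counts per gene symbol, not normalized; the study's methods name bowtie2 2.2.3 and RSEM 1.2.15, whereas the submitters' processing notes name TopHat2, edgeR and mm10, and the deposited counts hold no fractions. Libraries were grouped by their labels, which call the S.C. mice IS.

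All genes were fitted with edgeR 4.0.16 (R 4.3.3), after filterByExpr (minimum count 10, minimum total 15) and TMM, by the two-sided quasi-likelihood test for each pair of groups alone, with Benjamini-Hochberg adjustment over all genes tested. The standard error is the log2 fold change divided by the square root of F. The procedure was tested on simulated data. Positions and lengths are from GENCODE vM21 (GRCm38, the assembly of mm10), in which 9 members overlap another gene on the same strand and 19 on the other. Ratios used count + 1 and exact permutation tests (scipy 1.17.1).

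The members and lists were chosen with earlier results of these data known. The genes named are 9 fixed members, those with an unadjusted P under 0.05, the smallest P of each class, 5 fixed partners and the smallest P of each list, and 1 gene of the interferon-gamma list is not reported here. Alternatives were gene filters, RLE or library-size scaling, likelihood ratio test, DESeq2 1.42.0, a 3-group fit, a replicate block, and leaving out each mouse. Correlations of deviations between same-numbered mice were -0.129 to 0.071, so no block was used.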

Additional observations from a re-analysis of the deposited data

Results flagged for a closer look

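Of 54 values checked in the 4 I.P. mice, 4 had 1 mouse far from the other 3, and chance flags about 1 in 20. For Psma8, the gap of I.P. mouse 1 to the nearest mouse was 0.93 of the whole range, at 0 counts against 2.31 to 2.92 CPM. For Psmc3, an ATPase of the 19S base, the share was 0.836, with I.P. mouse 4 at a log2 CPM of 7.68 and the others at 7.89 to 7.93. For Ngly1, the enzyme that removes sugars from NRF1, it was 0.959, with I.P. mouse 1 at a log2 CPM of 4.79 and the others at 5.17 to 5.19. For the log2 ratio of Psmb9 over Psmb6 it was 0.832, with I.P. mouse 3 at -2.57 and the others at -4.18 to -3.91.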

How the results depend on the processing

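The medians of the 49 genes moved by less than the spread between mice (SD 0.16) under every alternative run. That spread is wider than the medians of S.C. against DMSO mice (-0.10) and S.C. against I.P. mice (0.14) themselves, so their signs could still turn. The former was -0.26 with library size only and 0.05 without S.C. mouse 2, and the latter was -0.01 without S.C. mouse 1. The counts of members that passed also changed. Against DMSO, S.C. mice had 1 member at an unadjusted P under 0.05 and 1 meeting the study's criterion with library size only or the likelihood ratio test, against 0. Of all genes, 5.86% and 6.60% had such a P under these 2 settings. Against I.P. mice, S.C. mice had 0 members at an unadjusted P under 0.05 with library size only (beside 8.65% of all genes), against 1. With the replicate block they had 3 (Psmb8, Psmb9, Psme2, of which 1 met the criterion), beside 3.63% of all genes at that P. The numbers do not pair the mice, and the crossed numbers, added after seeing the data, gave 0 members in S.C. against DMSO mice, beside 4.67% of all genes. Without each mouse in turn, the members at an unadjusted P under 0.05 ran from 0 to 3 in each comparison, those with an adjusted p under 0.05 from 0 to 2 and those meeting the criterion from 0 to 2 in S.C. against DMSO mice, and those meeting it from 0 to 1 in S.C. against I.P. mice. Without S.C. mouse 1 or 2, 16.2% and 19.5% of all genes had an adjusted p under 0.05 against DMSO mice. The Psmb8 over Psmb5 difference of I.P. mice ran from -1.39 to 0.10. Directions reversed for Psmb10 (-0.0309, library size only), Psmb6 (0.0856) and Irf1 (-0.11, both under the block) in I.P. mice, and in S.C. mice against DMSO for Pomp (-0.0600, library size only) and Adrm1 (0.0127 with RLE, 0.0127 with DESeq2, 0.0173 with 3 groups in 1 fit). The cause was not tested.

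Leaving out single mice also turned the sign of log2 fold changes that had not passed. In I.P. against DMSO mice the ranges were -0.11 to 0.22 (Psmb10), -0.20 to 0.22 (Psmb6), -0.44 to 0.12 (Psmb7), -0.75 to 0.20 (Psmb8), -0.88 to 0.0391 (Psmb9), -0.0652 to 0.26 (Psme1), -0.000403 to 0.29 (Adrm1), -0.10 to 0.59 (Irf1) and -0.80 to 0.52 (Tap1). In S.C. against DMSO mice they were -0.33 to 0.56 (Psmb5), -0.72 to 0.0118 (Psmb7), -0.16 to 0.78 (Psmb8), -0.0317 to 0.72 (Psmb9), -0.39 to 0.0399 (Psme3), -0.22 to 0.14 (Adrm1), -2.33 to 0.51 (Nfe2l1), -0.16 to 0.27 (Pomp) and -0.28 to 1.04 (Tap1). In S.C. against I.P. mice they were -0.12 to 0.55 (Psma3), -0.59 to 0.29 (Psmb11), -0.63 to 0.28 (Psmb5), -0.51 to 0.26 (Psmb7), -0.35 to 0.0326 (Adrm1) and -2.78 to 0.0302 (Nfe2l1). With 2 mice in a group, differences within the printed intervals could not be detected.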
